A study of Mus musculus with 9 samples.

Results

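The motile cilia genes are the protein-coding genes of the deposited mouse lung table whose symbols name axonemal dynein heavy or intermediate chains (Dnah, Dnaic), cilia and flagella associated proteins (Cfap), radial spoke proteins (Rsph), tektins (Tekt) or subunits of the dynein regulatory complex (Drc), together with Foxj1, Ccdc39, Ccdc40, Ccdc113, Ccdc153, Tmem212, Dynlrb2, Sntn, Hydin and Spag6l. The choice was by name and no measured value entered the rule, but earlier results of these data were known when it was made. It gave 76 genes of 55851 in the table, and 61 of them, of 17716 genes in all, had a mean of at least 0.2 FPKM over the 9 libraries and were tested. FPKM is a gene's read count divided by the gene's length and by the library size.

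The 9 RNA-seq libraries were made from whole lung of female C57BL/6J mice and carry the time label 7 weeks. They form 3 groups of 3 libraries: wild type given PBS (WT PBS 1, 2 and 3), wild type challenged with OVA, the egg protein ovalbumin, a model allergen (WT OVA 5, 6 and 9) and DJ-1 knockout challenged with OVA (DJ1_KO_OVA_263, DJ1_KO_OVA_266 and DJ1_KO_OVA_267). Where a group's 3 values are given, they stand in that order. No knockout group given PBS was analysed here, so the knockout was compared with wild type under OVA only, and the labels do not say whether a library holds the RNA of 1 mouse. Park7, the gene that encodes the redox-sensitive protein DJ-1, stood at 36.7 to 60.5 FPKM in the 6 wild-type libraries and at 3.96, 7.29 and 3.97 FPKM in the 3 knockout libraries, which accords with their labels.

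Motile cilia beat through an axoneme of paired microtubules on which dynein arms pull. Radial spokes, the central apparatus and the nexin-dynein regulatory complex time the dynein arms, and tektins and other inner proteins stiffen the microtubules. In the lung they stand on multiciliated cells of the airway, which clear mucus, and the transcription factor Foxj1 with members of the Rfx family switches on most axonemal genes as such cells form.

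Between 20812192 and 29080130 reads per library could be recovered from the FPKM values. The motile cilia genes took 7359 reads of 29080130 in WT PBS 3, the smallest share, and 19561 of 23413505 in WT OVA 6, the largest, so they were a small part of every library. Their summed level was 183, 158 and 86.0 FPKM in WT PBS 1, 2 and 3, then 195, 378 and 169 FPKM in WT OVA 5, 6 and 9, and 87.4, 161 and 121 FPKM in the 3 knockout libraries. WT OVA 6 stood apart at the top. By summed FPKM the other wild-type OVA libraries were just above the knockout libraries, and the PBS libraries overlapped both groups. By share of recovered reads that order did not hold, since WT OVA 9, with 7523 of 22090710 reads, lay below all 3 knockout libraries, the lowest of which had 9817 of 28339649. The library size by which the submitters divided was 0.89 times the recovered reads in WT OVA 9, the lowest ratio, and 1.21 times in DJ1_KO_OVA_263, the highest. In bulk lung, fewer multiciliated cells and less RNA per cell cannot be told apart.

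Levels differed widely between structural classes, here as the mean FPKM of the 9 libraries. Dynlrb2, a roadblock-type dynein light chain, was the most abundant at 28.4 FPKM. Foxj1 followed at 18.6 FPKM, Ccdc153, a subunit of the nexin-dynein regulatory complex, at 13.1 FPKM and Tmem212, a transmembrane protein, at 11.2 FPKM. Dynlrb2, Foxj1 and Ccdc153 made up 35.1% of the summed FPKM of the genes.

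The large motor subunits were close to the filter's limit. The 3 tested outer arm heavy chains had means of 0.285 to 0.292 FPKM and the 4 tested inner arm heavy chains 0.246 to 0.467 FPKM. The 6 tested genes of the central apparatus, which includes Hydin and Spag6l, lay between 0.20 and 0.955 FPKM. The 8 tested radial spoke genes reached 5.96 FPKM and the 4 tested tektins 3.91 FPKM.

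The 15 genes that did not pass the filter were Dnah3, Dnah7a, Dnah7b, Dnah7c, Dnah11, Dnah12, Dnah14, Dnah17, Cfap46, Cfap47, Cfap61, Cfap97d1, Cfap97d2, Rsph6a and Tekt3. Cfap46, at a mean of 0.196 FPKM, lay just under the filter, and Cfap54, at 0.20 FPKM, just above it. Dnah11, the outer arm heavy chain of the proximal cilium, was at 0.0576 to 0.368 FPKM, on 16 to 122 reads. Dnah12, an inner arm heavy chain, was at 0.0145 to 0.0872 FPKM, on 6 to 24 reads. Rsph6a, a radial spoke protein of sperm, had no read in any library. Dnah7a, Dnah7b and Dnah7c are near-identical copies, as are Rsph3a and Rsph3b, and Spag6l has a close relative, so their reads may be divided between copies.

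Most members moved together from library to library. Pearson's r of each gene's log2(FPKM + 0.5) with the mean of the other members over the 9 libraries had a median of 0.865, and 36 of the 61 tested genes had r of at least 0.8. Without WT OVA 6 the median was 0.691 and 20 of 61 reached 0.8, so part of the likeness rested on that library. The same r was not computed for genes outside the set, so the likeness was not shown to be particular to the members. Cfap45 (r = 0.98), Ccdc113 (r = 0.98), Cfap299 (r = 0.97), Cfap53 (r = 0.96) and Cfap161 (r = 0.96) were most like the rest, and Foxj1 had r = 0.91. Over the 8 libraries without WT OVA 6 those 5 had r of 0.91 to 0.96, and Foxj1 had r = 0.88.

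The 5 least like the rest were Dnah8 (r = -0.47), Tekt5 (r = -0.10), Cfap74 (r = 0.08), Cfap97 (r = 0.23) and Dnah2 (r = 0.23). Dnah8, an outer arm heavy chain, and Tekt5, a tektin, are best known from sperm flagella. Cfap97 was at 1.62 to 2.76 FPKM in the 9 libraries, which is a narrower range than that of Foxj1.

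WT OVA 6 held the highest level of 52 of the 61 tested genes, or 85.2%, against 10.1% of all tested genes. Among them Cfap54, Cfap221 and Hydin, at 0.435, 0.674 and 0.581 FPKM there, passed the filter only through that library. The lowest level fell in WT PBS 3 for 27 genes, or 44.3%, against 10.5% of all tested genes. It fell in DJ1_KO_OVA_263 for 17, or 27.9%, against 21.2%, a share nearer to that of all genes. Foxj1 was at 20.2, 10.4 and 6.69 FPKM in WT PBS 1, 2 and 3, at 21.9, 43.9 and 15.4 FPKM in WT OVA 5, 6 and 9, and at 8.57, 24.0 and 16.3 FPKM in the 3 knockout libraries. WT OVA 6 was highest and WT PBS 3 lowest, and Foxj1 levels of all 3 groups overlapped.

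**Figure D1:**
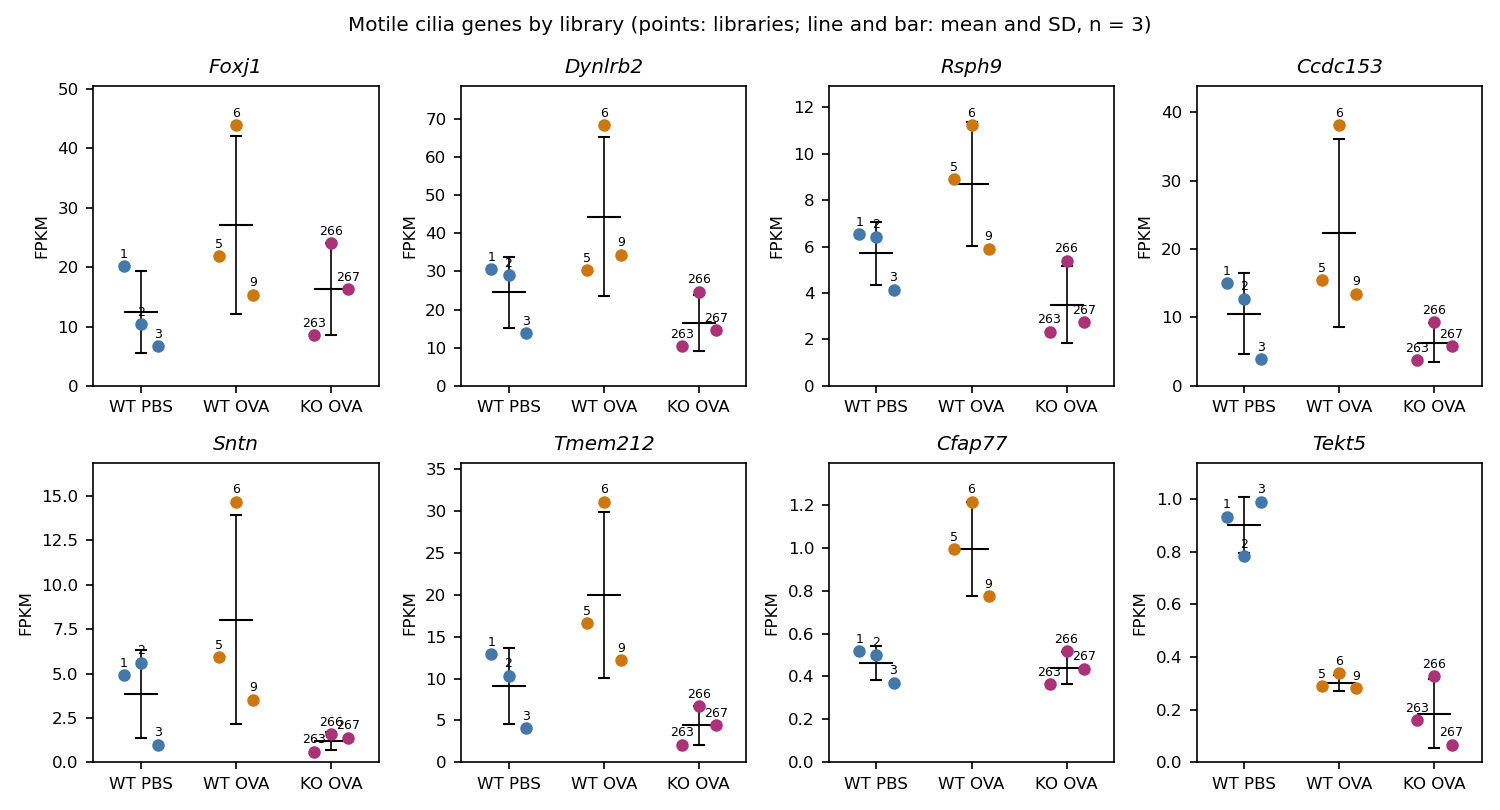
FPKM (y axis) of 8 motile cilia genes in each library, by group (x axis), with points for libraries and a line and bar for the mean and SD of 3 libraries. The highest wild-type OVA point is WT OVA 6 for Foxj1 (43.9 FPKM), Dynlrb2, Rsph9, Ccdc153, Sntn, Tmem212, Cfap77 and Tekt5, while Tekt5 is highest in the WT PBS libraries.

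**Figure D2:**
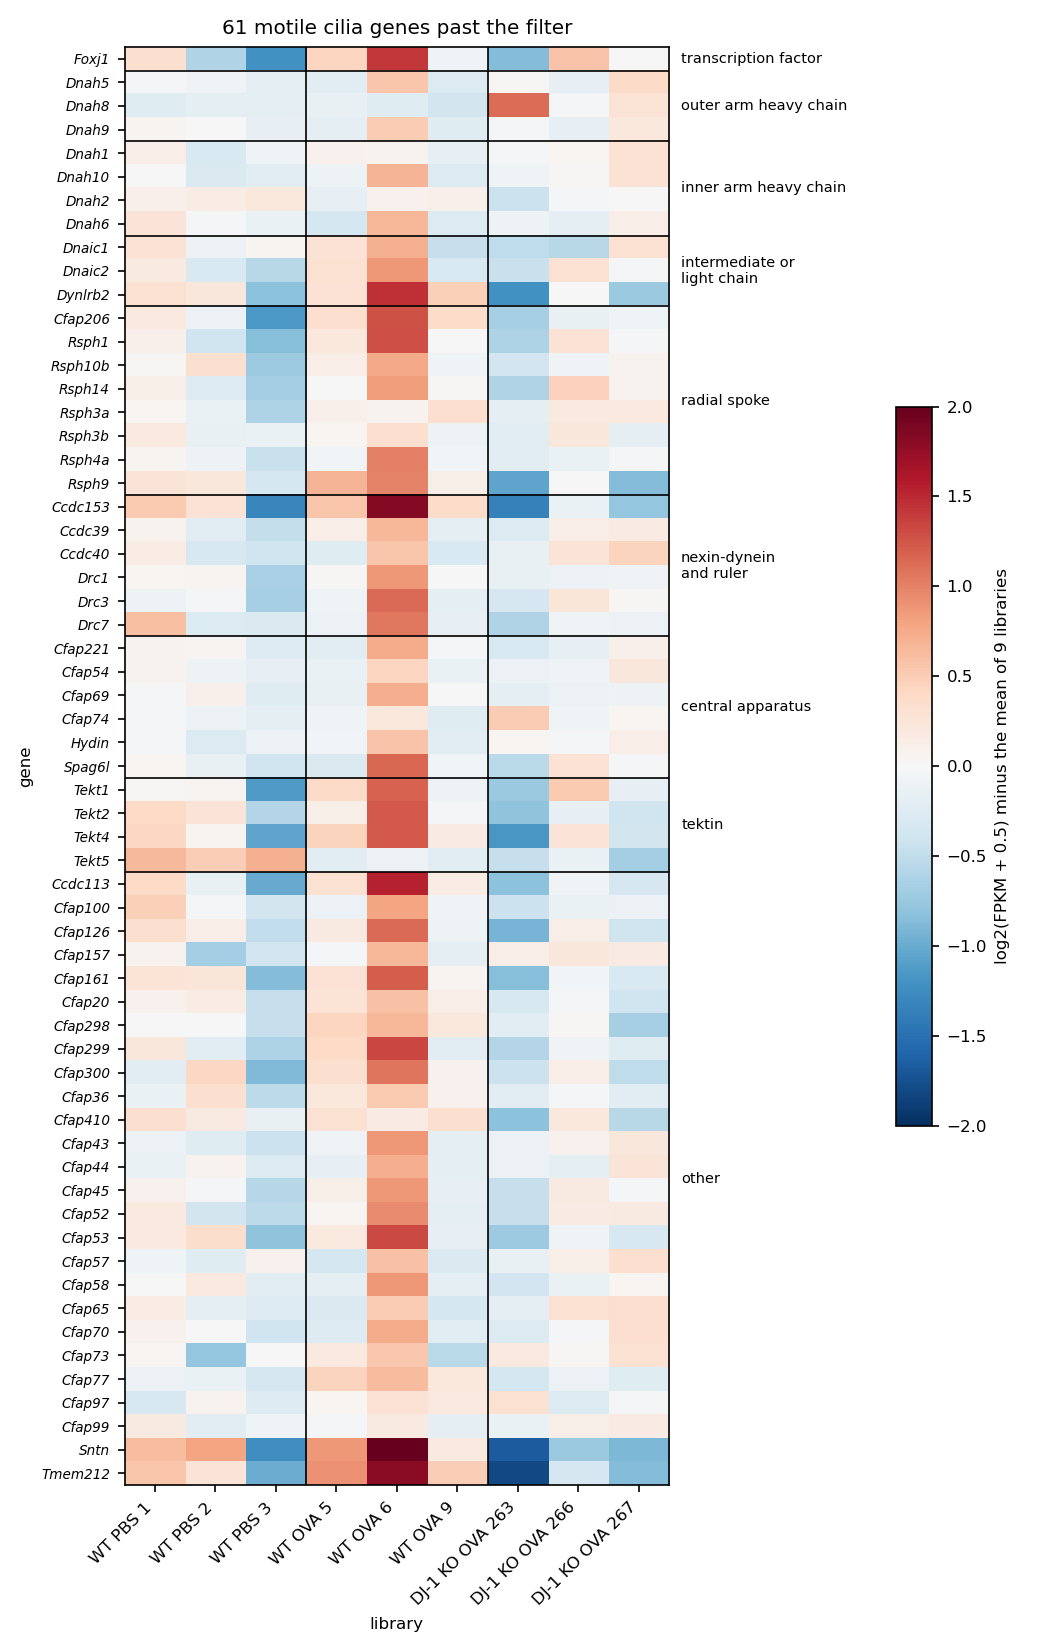
Level of each of the 61 tested motile cilia genes (rows, grouped by structural class) in the 9 libraries (columns), as log2(FPKM + 0.5) minus the gene's mean over the libraries. WT OVA 6 is the highest library for 52 genes (85.2%, against 10.1% of all tested genes). WT PBS 3 and DJ1_KO_OVA_263 hold the lowest level of 27 and 17 genes (44.3% and 27.9%, against 10.5% and 21.2%).

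The promoters were searched because so many of the genes moved together and because Rfx proteins bind the X-box, a pair of inverted arms. RefSeq promoter windows of build GRCm38.p6, from 250 bases before to 50 after each start, matched 64 of the 76 genes by symbol. The arm GTTGCC, on either strand, was in the window of 26 of the 64 genes (40.6%) and of 14.1% of all genes with a window. Paired arms, searched as GTTNCC followed after 0 to 3 bases by NGNAAC on either strand, were in 13 of 64 genes (20.3%), against 2.14% of 27025 genes and 2.39% of the 10947 tested protein-coding genes. A pair can hold a GTTGCC arm, so the counts overlap. The forkhead core TGTTTAC was in 5 of 64 genes (7.81%), against 4.05% of all genes.

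Paired arms that lay wholly before the start together with 10 flanking bases on each side are shown for 5 of the genes. The arms are in capitals, on the gene's own strand. They lie at chr8:116504954-116504986 (+) for Dynlrb2, chr11:114727376-114727408 (+) for Dnaic2, chr11:66168611-66168643 (-) for Dnah9, chr4:126325695-126325727 (-) for Tekt2 and chr16:44394762-44394795 (+) for Cfap44.
Dynlrb2: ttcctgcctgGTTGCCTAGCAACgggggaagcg
Dnaic2: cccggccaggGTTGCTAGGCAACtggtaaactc
Dnah9: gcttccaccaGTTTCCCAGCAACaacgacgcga
Tekt2: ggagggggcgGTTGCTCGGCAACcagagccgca
Cfap44: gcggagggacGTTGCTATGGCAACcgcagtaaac

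The capitals begin 51 bases before the start in Dynlrb2, 33 in Dnaic2, 82 in Dnah9, 29 in Tekt2 and 27 in Cfap44. In Dnaic2, Tekt2 and Cfap44 the searched letters are on the strand opposite to the one printed. Distances are from the RefSeq start, and the deposited table places the start of Dynlrb2 41 bases further upstream, within its pair. Cfap298 has pairs 69 and 188 bases before its RefSeq start, both inside the gene as the deposited table bounds it. Of these 6 genes Dynlrb2 alone was called in the comparisons below. Tested genes with paired arms (12) and without (38) had median differences of -0.37 and -0.33 on the log2 scale between the OVA groups, which is a small gap. Genes with the GTTGCC arm (21) and without (29) had medians of -0.58 and -0.29. A match is a stretch of letters and not a site shown to be bound.

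Sntn and Tmem212, the genes with the largest differences between the OVA groups, had no paired arms in their windows. The 250 bases before their starts are chr14:13670626-13670875 (+) for Sntn, with capitals for its single GTTGCC, 66 bases before the start, and for a forkhead core on the opposite strand, 236 bases before the start, and chr3:27896369-27896618 (-) for Tmem212, which held none of the 3 motifs.
Sntn: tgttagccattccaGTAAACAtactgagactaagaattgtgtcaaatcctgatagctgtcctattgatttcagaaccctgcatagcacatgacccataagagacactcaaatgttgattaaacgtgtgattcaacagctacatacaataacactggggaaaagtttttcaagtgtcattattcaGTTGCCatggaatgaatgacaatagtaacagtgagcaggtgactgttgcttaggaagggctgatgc
Tmem212: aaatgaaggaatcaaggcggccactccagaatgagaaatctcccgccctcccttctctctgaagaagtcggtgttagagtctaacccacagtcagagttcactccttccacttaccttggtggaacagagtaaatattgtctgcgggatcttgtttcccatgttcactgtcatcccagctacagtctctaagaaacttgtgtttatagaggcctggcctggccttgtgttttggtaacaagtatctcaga

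Wild-type lungs after OVA were compared with wild-type lungs given PBS to ask what OVA challenge did to the motile cilia genes. No member was called at an adjusted p below 0.05 in either direction, where 0.00564% of all tested genes were called higher and 0% lower (limma on log2(FPKM + 0.5), Benjamini-Hochberg adjustment over all tested genes, as in all comparisons here). The point estimates were mostly positive, for 57 of 61 tested genes against 50.5% of all tested genes, and their median log2 difference was 0.40, against 0.0044 for all genes. At an unadjusted p under 0.05 there were 7 members of 61, against 6.47% of all genes, and limma-voom on the recovered reads also called none.

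This lean was smaller without WT OVA 6. Without that library 37 of 61 differences were positive and their median was 0.13, and without WT PBS 3 the median was 0.24. With libraries scaled to equal FPKM sums 49 of 61 were positive with a median of 0.17, and the median of all genes moved to -0.22.

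Foxj1 was at 12.4 ± 6.97 FPKM (SD, n = 3) after PBS and 27.1 ± 15.0 FPKM (SD, n = 3) after OVA, a difference of 1.09 on the log2 scale (SE 0.49, limma adjusted p = 0.73). The groups overlapped, and WT OVA 9, at 15.4 FPKM, lay below WT PBS 1. The other abundant members had positive differences of varied size. They were 1.13 for Tmem212, 1.09 for Ccdc153 and 0.83 for Dynlrb2 on the log2 scale, and smaller, 0.38, 0.40, 0.58 and 0.55, for Cfap36, Cfap20, Cfap298 and Rsph9, and none passed the test.

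OVA libraries all lay above the PBS libraries for 4 of 61 members, against 7.25% of all genes, and all below for 1 member, against 7.52%. The 4 were Cfap206, a radial spoke protein, Cfap298, a factor needed to build dynein arms, Cfap77, a microtubule inner protein, and Rsph3a. Cfap206 was at 2.66, 2.06 and 0.747 FPKM in WT PBS 1, 2 and 3 and at 2.98, 6.20 and 3.05 FPKM in WT OVA 5, 6 and 9, a log2 difference of 1.01 (SE 0.37, limma adjusted p = 0.73). The 1 below was Tekt5, at 0.932, 0.782 and 0.990 FPKM after PBS and 0.288, 0.338 and 0.281 FPKM after OVA, on a log2 difference of -0.80 (SE 0.19, limma adjusted p = 0.67). Tekt5 thus went against the rest of the tektins, since Tekt1, Tekt2 and Tekt4 had differences of 0.84, 0.42 and 0.80, and none of the 4 was called.

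DJ-1 knockout lungs were then compared with wild-type lungs, both after OVA. Of 61 tested motile cilia genes 5 were lower in the knockout (8.20%) and none was higher, against 8.24% and 5.93% of all tested genes, so the share of calls was at the background. The 5 were Sntn, Tmem212, Dynlrb2, Rsph9 and Cfap77.

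Sntn, which encodes sentan of the cilium tip (ENSMUSG00000044772, chr14:13670876-13683148, + strand), was at 5.92, 14.7 and 3.53 FPKM in WT OVA 5, 6 and 9 and at 0.609, 1.61 and 1.38 FPKM in the 3 knockout libraries. The groups did not overlap, and the fall was 4.47-fold on the FPKM + 0.5 scale that all folds here use, or -2.16 on the log2 scale (SE 0.58, limma adjusted p = 0.038). Its 3 PBS values, 4.91, 5.62 and 0.997 FPKM, spanned much of that gap, with WT PBS 3 inside the knockout range.

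Tmem212 (ENSMUSG00000043164, chr3:27866066-27896368, - strand) was at 16.6, 31.1 and 12.2 FPKM in WT OVA 5, 6 and 9 and at 2.11, 6.68 and 4.45 FPKM in the 3 knockout libraries. It fell 4.20-fold, by 2.07 on the log2 scale (SE 0.49, limma adjusted p = 0.026), and even WT OVA 9 was higher than every knockout library. After PBS Tmem212 was at 12.9, 10.3 and 4.04 FPKM.

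Dynlrb2 (ENSMUSG00000034467, chr8:116504974-116515915, + strand) was at 30.3, 68.3 and 34.4 FPKM in WT OVA 5, 6 and 9 and at 10.3, 24.7 and 14.6 FPKM in the 3 knockout libraries. The groups were apart, and the fall was 2.62-fold, by 1.39 on the log2 scale (SE 0.41, limma adjusted p = 0.0496), at the edge of the threshold.

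Rsph9, a protein of the radial spoke head (ENSMUSG00000023966, chr17:46122035-46144216, - strand), was at 8.91, 11.2 and 5.90 FPKM in wild type and 2.34, 5.39 and 2.73 FPKM in the knockout. It fell 2.36-fold, by 1.24 on the log2 scale (SE 0.32, limma adjusted p = 0.034), and WT OVA 9 and DJ1_KO_OVA_266 nearly met.

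Cfap77 (ENSMUSG00000079502, chr2:28926949-29055066, - strand), the least abundant of the 5, was at 0.993, 1.21 and 0.775 FPKM in wild type and 0.365, 0.516 and 0.436 FPKM in the knockout. The difference was -0.66 on the log2 scale (SE 0.19, limma adjusted p = 0.043), a scale that understates the change of low genes. Knockout values overlapped those after PBS, which were 0.517, 0.501 and 0.372 FPKM.

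The calls changed with single libraries, and so did those of all genes. No member was called when any one of WT OVA 5, WT OVA 6, WT OVA 9, DJ1_KO_OVA_263 or DJ1_KO_OVA_267 was left out, and 11 were called, 10 lower and Dnah8 higher, without DJ1_KO_OVA_266. Over all 17716 tested genes the calls in both directions went from 2510 to 548, 448, 477, 1197 and 286 in the same 5 fits, and to 5694 without DJ1_KO_OVA_266, so 11 of 61 was a smaller share than that of all genes. Without WT PBS 1, which enters through the shared estimate of spread, Tmem212 alone was called (1257 of all genes), and without WT PBS 2 the count was 3 (2255 of all genes).

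Across the 61 tested members 51 differences were negative and 10 positive, where 50% of all tested genes were positive, and the median was -0.35 against 0 for all genes. Scaling to equal FPKM sums ended that lean, with 31 of 61 positive and a median of 0.001, while the median of all genes moved to 0.46, so the members stayed 0.46 below all genes. Without WT OVA 6, 38 of 61 were negative with a median of -0.11, and the median was -0.23 without DJ1_KO_OVA_263 and -0.53 without WT OVA 9. Knockout libraries all lay below wild type for 14 members against 18.8% of all genes, and all above for 1 member, Dnah8, against 18.4%.

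Ccdc153, whose difference was the third largest in size, just missed the threshold. It was at 15.4, 38.1 and 13.5 FPKM in wild type and 3.74, 9.34 and 5.84 FPKM in the knockout, a difference of -1.67 on the log2 scale (SE 0.53, limma adjusted p = 0.056). Foxj1, at 16.3 ± 7.73 FPKM (SD, n = 3) in the knockout, differed by -0.69 (SE 0.49, limma adjusted p = 0.33) with overlapping groups, so the regulator itself did not pass the test.

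The radial spoke genes other than Rsph9 were not called. Rsph1, a spoke head protein, had a log2 difference of -0.61 and Rsph4a, its partner, -0.42, and all 8 tested spoke genes had negative differences. In the nexin-dynein complex and its ruler, Drc1 was at -0.41, Ccdc39 at -0.20 and Ccdc40, the partner of Ccdc39 in the ruler, at 0.18. Cfap206 was at -0.96 (limma adjusted p = 0.096) with groups that did not overlap.

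The 6 tested dynein heavy chains other than Dnah8 had differences of -0.17 to 0.10. Dnah5, the main outer arm heavy chain, was at 0.163, 0.645 and 0.146 FPKM in wild type and 0.288, 0.198 and 0.510 FPKM in the knockout, a log2 difference of 0.06. Dnah9, its partner in the distal cilium, differed by -0.02 and Dnah6, of the inner arms, by -0.06. The intermediate chains Dnaic1 and Dnaic2, on which the outer arm is anchored, differed by -0.43 and -0.35.

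The central apparatus genes Hydin and Spag6l had differences of -0.05 and -0.37. Among the tektins, Tekt1 was at -0.61, Tekt2 at -0.90 and Tekt4 at -1.03, and none was called. Other named members had differences of -1.07 for Ccdc113, -0.81 for Cfap126, -0.13 for Cfap43, -0.31 for Cfap52, -0.82 for Cfap53, -0.66 for Cfap410 and -0.72 for Cfap298, and none of them passed.

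Dnah8 ran the other way. It was at 0.169, 0.130 and 0.0796 FPKM in wild type after OVA and at 1.11, 0.235 and 0.404 FPKM in the 3 knockout libraries, a log2 difference of 0.71 (SE 0.27, limma adjusted p = 0.089), and limma-voom on the recovered reads called it higher. Every knockout library was above all 6 wild-type libraries. Its group means were 0.144 FPKM after PBS, 0.126 FPKM in wild type after OVA and 0.584 FPKM in the knockout. Dnah8 thus passed the filter of 0.2 FPKM only through the knockout, so its tests are no independent support for a higher level there. Cfap74, of the central apparatus, was also highest in DJ1_KO_OVA_263, at 0.526 FPKM against 0.112 to 0.338 FPKM in the other 8 libraries, and did not pass the test in any comparison.

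Knockout lungs after OVA were last set against wild-type lungs after PBS, a comparison in which genotype and OVA differ together and which shares its libraries with the other two. One member of 61 was lower and none higher, against 4.47% and 4.07% of all tested genes. It was Tekt5 (ENSMUSG00000039179, chr16:10357948-10395490, - strand), at 0.932, 0.782 and 0.990 FPKM after PBS and 0.161, 0.328 and 0.0679 FPKM in the knockout. The fall was 2.07-fold, by 1.05 on the log2 scale (SE 0.19, limma adjusted p = 0.012), on 3 to 55 reads per library, and the call was lost without WT PBS 1 or without DJ1_KO_OVA_267.

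The other members were spread around 0 in that comparison. Of 61 differences 33 were positive, against 49.9% of all genes, and the median was 0.04, or -0.14 without WT PBS 3 and 0.11 without WT PBS 1. With equal FPKM sums 44 were positive and the median was 0.24, and the median of all genes was likewise 0.24. Groups were apart, knockout above, for Dnah8, Cfap157 and Hydin, or 3 members against 12.7% of all genes, and below for Tekt5 and Dnah2, or 2 against 12.9%.

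Genes that work with the members were taken from lists of cilia genes. Of 47 tested other axonemal genes, 9 (19.1%) were lower in the knockout than in wild type after OVA and none was higher, against 8.24% and 5.93% of all tested genes, with a median of -0.42 against 0. They included Tppp3, Oscp1, Tctex1d4, Enkur, Tctex1d2, Riiad1, Dydc2 and Spa17. Tppp3, a tubulin polymerization protein that is abundant in multiciliated cells, was at 288, 291 and 273 FPKM in wild type and 42.4, 118 and 42.0 FPKM in the knockout, a log2 difference of -2.24 (limma adjusted p = 0.011), and it was also lower than after PBS (-1.86, limma adjusted p = 0.018). Tppp3 was about as high in WT OVA 5 as in WT OVA 6. The count of 9 ranged from 0 without DJ1_KO_OVA_267 to 15 without DJ1_KO_OVA_266, and it was 2 without WT OVA 5, 1 without WT OVA 6, 5 without WT OVA 9, 2 without DJ1_KO_OVA_263, 6 without WT PBS 1 and 1 with no filter. The shares called in this list and in the lists below were not matched for gene length. Between the OVA groups 14.8% of all genes shorter than 3101 bases were called lower, and 2.72% of the longer ones.

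Intraflagellar transport, which carries parts along the growing cilium, had 3 of 28 tested genes (10.7%) lower in the knockout after OVA, a share near the 8.24% of all tested genes. They were Dync2li1, a light chain of the retrograde motor (-0.99, limma adjusted p = 0.017), Hspb11 (-1.15, limma adjusted p = 0.028) and Ift43 (-1.03, limma adjusted p = 0.041). Dync2li1 was also lower than after PBS (-0.88, limma adjusted p = 0.024). The count was 0 without WT OVA 6, WT OVA 9 or DJ1_KO_OVA_267, 1 without WT OVA 5 or DJ1_KO_OVA_263, and 8 without DJ1_KO_OVA_266.

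In the BBSome, a cargo adaptor of the cilium, Bbs5 alone of 10 genes was called, lower in the knockout after OVA (-1.02, limma adjusted p = 0.026), and 1 of 10 is near the 8.24% of all genes. None of the 14 tested docking and assembly factors of the dynein arms was called in any comparison, and none of them had an unadjusted p under 0.05 between the OVA groups. Among 15 tested regulators of multiciliated cell formation, E2f4, which drives centriole amplification, was alone called, higher in the knockout after OVA (0.68, limma adjusted p = 0.049). That 1 of 15 is near the 5.93% of all tested genes called higher. Regulators upstream of Foxj1 did not pass, with Mcidas at 0.17 and Gmnc at -0.43 between the OVA groups. After OVA in wild type none of these lists had a called gene, and the smallest adjusted p was that of Morn5, at 1.65 on the log2 scale (limma adjusted p = 0.67).

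Markers of other airway and alveolar cells moved beside the members, and their part in the results was not tested. Club cells are secretory cells of the small airway. All 13 of their markers passed the filter, and their summed level was 23586 to 63898 FPKM after PBS, 35801 to 109705 FPKM in wild type after OVA and 25763 to 34675 FPKM in the knockout. The mean log2 level of the club markers was 8.12 in WT OVA 6 and 6.33 to 7.46 in the other 8 libraries. WT OVA 6 was thus highest for both cell types, and this was not particular to them. It was also highest for the general epithelial markers (5.56) and, narrowly, the alveolar type 2 markers (9.12, against 9.08 in WT PBS 2). It was not highest for the alveolar type 1, airway basal or goblet markers. Scgb3a2, a club cell secretoglobin, was at 2047, 3955 and 1784 FPKM in wild type after OVA and 466, 515 and 376 FPKM in the knockout (-2.44, limma adjusted p = 0.012). Ces1d, Cyp4b1 and Cyp2b10 were lower as well, which gave 4 of 13 lower (30.8%, against 8.24% of all tested genes) and none higher, with 0 called without DJ1_KO_OVA_267 and 2 without WT OVA 5 or WT OVA 6. Of the 13 club markers 12 had negative differences between the OVA groups, with a median of -1.13.

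Goblet cell markers ran the other way in the same library. Agr2, a protein disulfide isomerase that mucins need to fold, was at 3.37, 5.25 and 2.32 FPKM after PBS, at 42.3, 9.74 and 45.2 FPKM in WT OVA 5, 6 and 9 and at 34.5, 38.2 and 25.6 FPKM in the knockout. Of 12 goblet markers 4 were higher in the knockout than in wild type after OVA (Slc26a4, Muc5ac, Muc5b and Itln1), against 5.93% of all tested genes, and all 12 were higher in the knockout than after PBS, against 4.07%. The count of 4 was 2 without any one of WT OVA 5, WT OVA 6, WT OVA 9 or DJ1_KO_OVA_263, 1 without DJ1_KO_OVA_267 and 9 with equal FPKM sums. Their summed level was 158 to 215 FPKM after PBS, 458 to 1228 FPKM in wild type after OVA, with WT OVA 6 lowest, and 1497 to 2424 FPKM in the knockout. WT OVA 6 therefore joined the highest motile cilia level to the lowest goblet level of its group.

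General epithelial markers mostly had negative differences between the OVA groups, 10 of 12 tested, with a median of -0.80. Krt19, Cldn3 and Krt18 were called lower and Cdh1 higher in the knockout after OVA. The 12 markers summed to 529 to 819, 588 to 1109 and 441 to 521 FPKM in the 3 groups. Those calls were 3 lower and 1 higher of 12, against 8.24% and 5.93% of all tested genes. None of the 4 was called without WT OVA 5, WT OVA 6 or DJ1_KO_OVA_267. The alveolar type 2 markers summed to 36796 to 61550 FPKM after PBS, 52911 to 58554 FPKM in wild type after OVA and 11069 to 20750 FPKM in the knockout. All 11 had negative differences between the OVA groups, with a median of -0.85. Called lower were 3 (27.3%, against 8.24% of all tested genes), Napsa, Lyz2 and Lamp3. All 8 tested alveolar type 1 markers also had negative differences, with a median of -1.03, and 3 were called lower (37.5%), Aqp5, Hopx and Ager. Of 7 tested airway basal markers 1 was lower (14.3%), Dapl1, and Trp63, their defining factor, was below the filter at up to 0.180 FPKM.

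Cells with cilia or flagella outside the airway left little trace. Of 12 male germ cell genes 3 passed the filter, and Tnp1, Odf1 and Acrv1 were listed at 0 in all libraries. Of 6 ependymal and choroid genes 2 passed, Otx2 was listed at 0 in all libraries and Ttr reached 0.0395 FPKM. None of the 5 that passed was called.

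The members were also set against the epithelial lists in each library. The mean log2 level of the members minus that of the general epithelial markers was -4.15, -3.86 and -4.30 after PBS, -4.42, -3.88 and -3.96 in wild type after OVA and -4.18, -3.86 and -3.71 in the knockout, with overlapping groups. Against the club cell markers the difference was -6.49 to -6.12 in the 6 wild-type libraries and -5.97, -5.75 and -5.55 in the 3 knockout libraries, so the members stood higher relative to club markers in every knockout library. Against the goblet markers it was the reverse, at -3.15 to -0.63 in the 6 wild-type libraries and -4.34, -3.79 and -4.02 in the knockout. Against the alveolar type 2 markers the difference was -8.53 to -7.44 in wild type and -7.81, -7.22 and -6.73 in the knockout. There DJ1_KO_OVA_263 lay within the wild-type range. No test was made of these differences, since they are scores over the chosen genes.

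**Figure D3:**
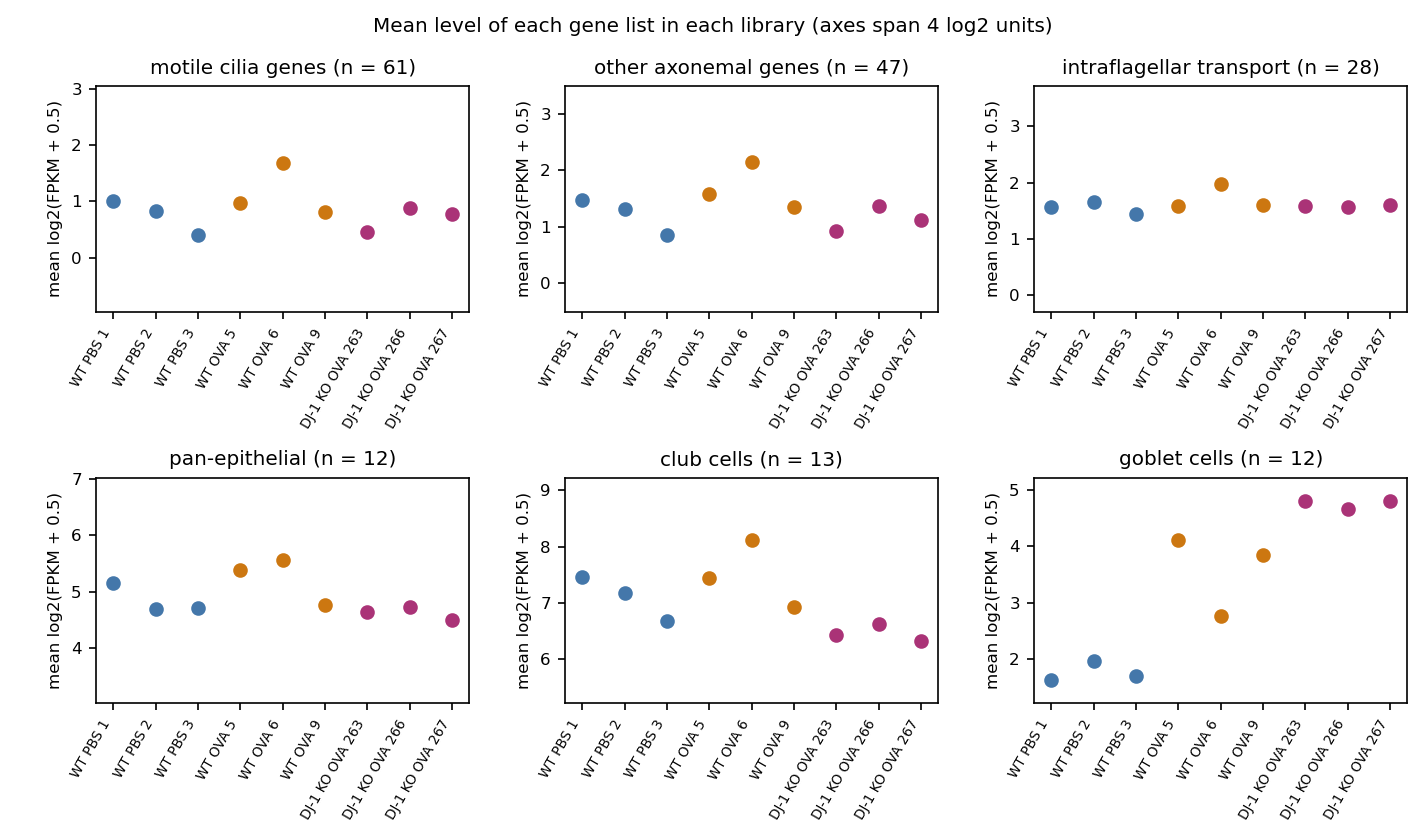
Mean log2(FPKM + 0.5) (y axis) of 6 gene lists in each of the 9 libraries (x axis), with blue for WT PBS, orange for WT OVA and purple for DJ-1 KO OVA, on axes that each span the same range. WT OVA 6 is the highest library for the motile cilia genes (1.68), other axonemal genes (2.14), intraflagellar transport (1.98), general epithelial markers (5.56) and club cell markers (8.12). For the goblet markers it is lowest of its group (2.76 against 4.11 and 3.84).

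Gene length went with the differences. Across the 61 tested members, Pearson's r of the log2 difference with log10 length was 0.68 between the OVA groups, -0.57 for OVA against PBS in wild type and 0.44 for knockout against PBS, and over all 17716 tested genes r was 0.32, -0.26 and 0.19. Genes are not independent replicates, and lengths are those of the deposited table. Long members also had low levels. The tested dynein heavy chains had means of 0.246 to 0.467 FPKM, below the 0.5 added before the logarithm, which shrinks their differences. Short Dynlrb2 and Tmem212 had means of 28.4 and 11.2 FPKM. Length and level were not tested apart. Members shorter than 3101 bases had a median of -0.68 between the OVA groups against -0.29 for all shorter genes, and the longer members had -0.15 against 0.20 for all longer genes. All 5 called members were among the 30 shorter ones, and 14.8% of all shorter genes and 2.72% of all longer genes were called lower.

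After a smooth trend with length was subtracted in each library, the shorter and longer members had medians of -0.41 and -0.44 and r was 0.15. No member was then called between the OVA groups, the smallest adjusted p being 0.0504 (limma), for Tmem212. The 9 longest tested members, the 7 dynein heavy chains with Hydin and Cfap54, span 13043 to 26820 bases, and Dynlrb2 (556 bases) and Tmem212 (716 bases) are the shortest.

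**Figure D4:**
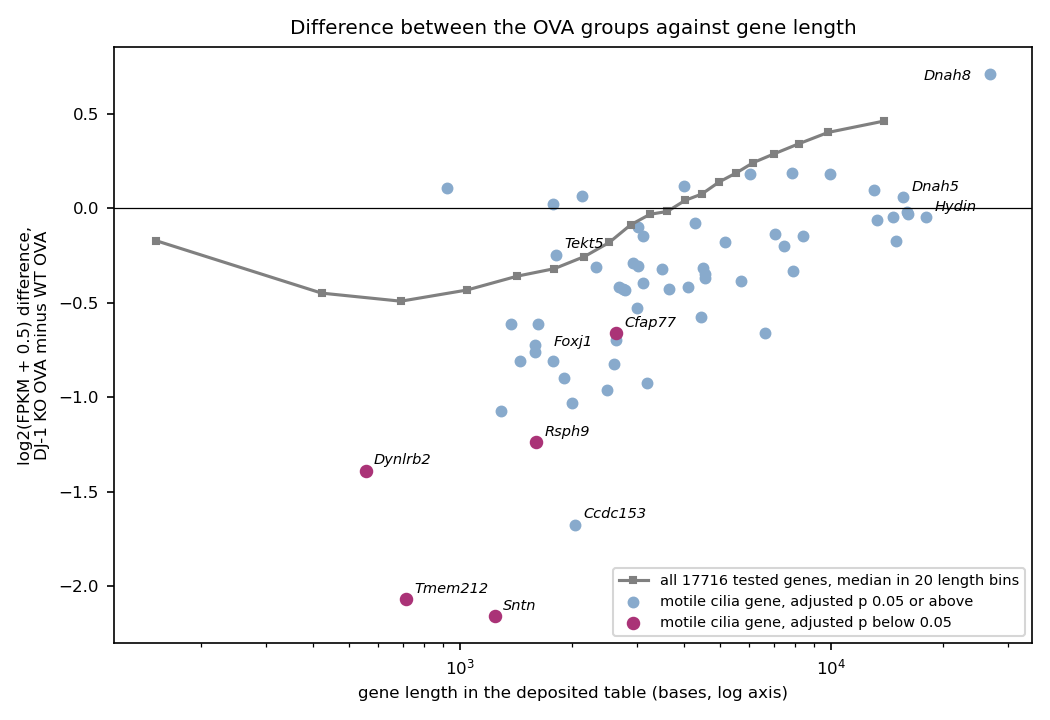
Difference in log2(FPKM + 0.5), DJ-1 KO OVA minus WT OVA (y axis), against gene length in bases (x axis, log scale) for the 61 tested motile cilia genes (points) and the median of all tested genes in 20 length bins (grey line). The 5 called genes, in purple, lie at 2624 bases or less, and most points lie below the grey line.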

How the data were processed

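Lung RNA of 9 mouse libraries in 3 groups of 3 was sequenced after Illumina TruSeq library preparation, per the labels' protocols. Trimmomatic, HISAT2, HTSeq and build GRCm38.p6 are named in the submitters' processing notes, and the deposited unit is FPKM per gene, per the file headers. How strand entered the counting is not stated there. FPKM values were whole multiples of 1 read (100% of values within 0.01 reads), which gave the recovered reads.

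Genes whose mean reached 0.2 FPKM were tested with limma 3.58.1 (R 4.3.3, empirical Bayes with a trend in the mean) on log2(FPKM + 0.5), in 1 fit of the 3 groups with 6 residual degrees of freedom, adjusted by Benjamini-Hochberg and called below 0.05. All p-values measure the spread between libraries, which may be technical. The procedure was tested on data simulated at a set spread, with changes placed in genes of at least 1 FPKM. In the 3 comparisons, in the order used above, it called 4%, 10% and 4% of the 2-fold changes. Of the 4-fold changes it called 83%, 81% and 83%. In that simulation most 2-fold changes were thus missed. It changed far fewer genes than the 2510 called between the OVA groups, which makes the adjustment stricter in the simulation. Its shares therefore do not carry over to that comparison.

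The members and lists were chosen with earlier results of these data known. Named members were a set of well-known genes, every called gene, the 6 with the smallest p in each comparison and the 5 least correlated with the rest, and up to 3 genes of each other list by p, besides those called. The values of 1 gene of these lists are not reported here. Cfap45, Cfap161, Cfap157, Cfap299, Rsph3a, Mcidas, Gmnc and the genes below the filter were named after their values were seen. Alternatives were another pseudocount, filter, scaling or fit, the recovered reads with limma-voom, each library left out, and, chosen after seeing the data, removal of a length trend by lowess (span 0.3).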

Additional observations from a re-analysis of the deposited data

How the results depend on the processing

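For OVA against PBS in wild type the count of called members was 0 under all alternatives. Between the OVA groups it was 5, and 7 with limma-voom on the recovered reads (6 lower and Dnah8 higher), 6 with a mean FPKM of at least 1, 4 or 5 with another pseudocount or quantile normalization, 0 with no filter, 2 with equal FPKM sums, 2 with the 6 compared libraries alone, 0 with the length trend removed (an alternative chosen after seeing the data) and 0 to 11 with 1 library left out. Leaving out WT PBS 1, 2 or 3 gave 1, 3 and 6. Over all tested genes the count also moved, from 2510 to 286 without DJ1_KO_OVA_267 and to 5694 without DJ1_KO_OVA_266. For knockout against PBS it was 1, and 0 with a mean FPKM of at least 1, which removes Tekt5, 2 with limma-voom on the recovered reads (Dnah8 higher) and 0 to 4 with 1 library left out. No called difference reversed under the alternatives run. No paired analysis was possible because the groups share no replicate numbers. The least covered tested members, Tekt5 and Cfap73, had as few as 3 reads in a library, and 3 libraries a group limit all calls.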

Other observations

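Besides Dnah8 and Cfap74, other cilia-related genes had their highest level in DJ1_KO_OVA_263, and they were picked after their values were seen. That library held the highest level of only 3 of the 61 tested members (4.92%), against 20.7% of all tested genes. Mns1, a microtubule inner protein also needed in sperm flagella, was at 4.57 FPKM there, at 0.782 and 1.33 FPKM in DJ1_KO_OVA_266 and DJ1_KO_OVA_267 and at 0.243 to 1.26 FPKM in the 6 wild-type libraries (1.26 on the log2 scale against PBS, limma adjusted p = 0.11). Myb, a transcription factor of dividing progenitors that also acts early in multiciliated cell formation, was at 12.3 FPKM in DJ1_KO_OVA_263, at 1.21 and 1.5 FPKM in DJ1_KO_OVA_266 and DJ1_KO_OVA_267 and at 0.758 to 1.24 FPKM in wild type (1.32 against wild type after OVA, limma adjusted p = 0.14). Neither passed the test.

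Morn5 showed the largest difference of the axonemal lists after OVA in wild type. It was at 2.03, 0.546 and 0.410 FPKM in WT PBS 1, 2 and 3, at 2.77, 4.83 and 3.77 FPKM in WT OVA 5, 6 and 9 and at 1.10, 2.61 and 2.29 FPKM in the 3 knockout libraries, and was not called in any comparison.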
